A study of Mus musculus with 11 samples.

Results

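The genes described here are 8 mouse genes of the type 1 cytokine response: Ifng, the receptor genes Il12rb1, Il12rb2, Il18r1 and Il18rap, and the regulator genes Stat4, Tbx21 and Eomes. They were chosen by name, and every probe set annotated with 1 of these symbols alone was taken, which gave 9 probe sets (2 for Eomes) among 22690 on the array, or 8 genes among 12393. All 8 lay among the 7436 genes bright enough to be tested. RNA was measured in T cells of the mouse strain B10.BR after 4 days with dendritic cells, the cells that present antigen to T cells, of the strain C57BL/6. The dendritic cells came from Liver (n = 3 arrays), from the organs labelled MLN (n = 3) and PLN (n = 3), which the labels do not spell out, or from Spleen (n = 2). All 4 groups thus share the T cell strain, the stimulator strain and the time. No group without dendritic cells, no unstimulated T cells and no reference organ is among the samples, so each organ is described against the others. The arrays carry the replicate numbers 2, 3 and 4, with 3 and 4 only for Spleen. The labels name no animals, pools or separate cultures behind the arrays of a group, and every p-value here therefore rests on array-to-array spread that may be technical in part or in whole. In a culture of many cells, a lower level can reflect fewer cells that carry an RNA or less RNA per cell, and these cannot be told apart.

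Type 1 immunity is the arm of the T cell response built around interferon gamma, the cytokine that Ifng encodes and that activates macrophages. Dendritic cells release interleukin 12, whose receptor on T cells pairs the chains encoded by Il12rb1 and Il12rb2 and signals through the transcription factor encoded by Stat4. T-bet, the product of Tbx21, and the related T-box factor encoded by Eomes activate Ifng in CD4+ and CD8+ T cells. Interleukin 18 acts with interleukin 12: Il18r1 encodes the chain that binds it and Il18rap the accessory chain needed to signal.

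Il18r1 and Il18rap lie next to each other on mouse chromosome 1. In the RefSeq annotation of GRCm38.p6, Il18r1 spans chr1:40465552-40500854 and Il18rap chr1:40515362-40551707, with 14507 bases between them. Il1rl1, the gene of the interleukin 33 receptor, ends 133 bases before Il18r1 begins. The promoter windows of these neighbours are shown because both genes had higher levels in Liver than in MLN cultures, and that of Ifng is shown as the cytokine gene of the pathway. The sequences run 5′ to 3′ on the plus strand and end at the base before the annotated start. That of Il18r1 (chr1:40465419-40465551) stops where Il1rl1 ends, while those of Il18rap (chr1:40515112-40515361) and Ifng (chr10:118440796-118441045) are 250 bases long. Capitals mark the STAT motif.
Il18r1: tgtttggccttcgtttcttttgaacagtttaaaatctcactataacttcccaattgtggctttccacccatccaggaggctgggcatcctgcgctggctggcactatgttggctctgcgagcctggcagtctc
Il18rap: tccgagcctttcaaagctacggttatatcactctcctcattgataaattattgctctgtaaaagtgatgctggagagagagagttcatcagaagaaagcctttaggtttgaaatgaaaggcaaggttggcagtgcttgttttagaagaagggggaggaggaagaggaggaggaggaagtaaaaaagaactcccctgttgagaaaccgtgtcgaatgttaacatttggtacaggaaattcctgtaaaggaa
Ifng: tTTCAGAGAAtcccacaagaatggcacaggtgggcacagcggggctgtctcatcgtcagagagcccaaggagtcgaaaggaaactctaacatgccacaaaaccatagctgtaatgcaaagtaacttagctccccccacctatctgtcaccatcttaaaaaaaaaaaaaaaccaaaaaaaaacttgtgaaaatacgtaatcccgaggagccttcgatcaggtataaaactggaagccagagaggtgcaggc

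Windows of 250 bases before a transcription start listed for the gene were searched on both strands. Where several were listed, the start nearest to the annotated first base of the gene was used. The search was for a T-box motif (GTGTGA), a STAT motif (TTCNNNGAA) and a Runx motif (TGTGGT). A window was listed for 7 of the 8 genes, and Il12rb1 had no entry. The STAT motif occurred in the Ifng window, where it begins 249 bases before the start, and in the Il12rb2 window, at 123 bases. The Il12rb2 window also held the T-box motif, on the reverse strand of the window, 80 bases before its listed start. This window is chr6:67376189-67376438, and the annotated gene, on the minus strand, begins at base 67376293. The T-box match therefore lies inside the annotated gene. The Stat4 and Eomes windows also ran past the first base of their annotated genes. None of the motifs occurred in the windows of Il18r1, Il18rap, Stat4, Tbx21 or Eomes. Of 32851 such windows in the RefSeq table, 7.02% held the STAT motif, 12.3% the T-box motif and 14% the Runx motif. A match describes letters in this window and does not show that a factor binds there.

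The arrays resembled each other in depth of signal: median intensities were 144.3 to 170.4, and 12.9% to 16.5% of probe sets lay below an intensity of 16, the constant added before taking logarithms. The number of arrays limits the precision of every value below. T cell marker transcripts were bright, with mean intensities of 8666 for Thy1 and 4431 for Cd3g. Cd8a and Cd8b1 (means 3178 and 3722) and Cd4 (mean 1021) were all measured above the test limit, and the labels do not say which T cell subset was cultured. Transcripts listed as dendritic cell markers were measurable at differing levels, and which cells they came from was not tested. Ccl22 (mean 1993), Cd74 (mean 1644) and Batf3 (mean 1513) were the brightest, and Flt3 (mean 159) and Ccl17 (mean 180) were far dimmer. Xcr1 (mean 53.7) and Ciita (mean 63.2) lay below the test limit, and the other 10 were above it. Arrays that share a replicate number resembled each other across genes, and over all tested genes 57.9% of the variance went with the number. For this reason each difference between organs is given from a fit of organ means alone and, where it changes a call, from a blocked fit, which adds a term for the replicate number. Levels below are log2(intensity + 16) after quantile normalization, arrays are listed by replicate number, and a difference was called at an adjusted p under 0.05.

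Il18r1 was the member that differed most between organs, with its highest level in Liver cultures and its lowest in MLN cultures. Its log2 levels in Liver cultures were 11.48, 10.77 and 11.41, a mean of 11.22 ± 0.39 (SD, n = 3). In MLN cultures they were 8.99, 8.80 and 10.29, a mean of 9.36 ± 0.81 (SD, n = 3). Every Liver array was above every MLN array, and the MLN array numbered 4 stood apart from the other MLN arrays. PLN cultures had 10.67, 10.29 and 10.49, a mean of 10.49 ± 0.19 (SD, n = 3), and Spleen cultures 10.35 and 11.18, a mean of 10.76 ± 0.59 (SD, n = 2). The order of the means was thus Liver, Spleen, PLN and MLN. The Spleen arrays overlapped both the Liver and the PLN arrays, whereas all PLN and Spleen arrays exceeded all MLN arrays, by a narrow margin for the lowest PLN array.

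The intensity of Il18r1 as deposited averaged 2428 ± 604 (SD, n = 3) in Liver cultures and 716 ± 446 (SD, n = 3) in MLN cultures. The log2 difference between Liver and MLN was 1.86, a 3.63-fold difference, and the Liver array was higher within each of the 3 replicate numbers, by 2.49, 1.97 and 1.12. With organ means alone the standard error was 0.37 and limma's Benjamini-Hochberg adjusted p was 0.173, which misses the threshold. In the blocked fit the standard error was 0.22 and the adjusted p 0.000796. That call was made in all 11 blocked fits that left out 1 array. Without MLN 4, the fit of organ means alone also called it, with a difference of 2.33 and an adjusted p of 0.0137. It was the only 1 of the 11 such fits to do so, and the adjusted p reached 0.799 without Liver 2. The difference was therefore larger than the spread between arrays once the number was in the fit.

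Against the mean of the other 3 organs, Il18r1 in MLN cultures differed by -1.46 on the log2 scale (limma adjusted p = 0.233), and in the blocked fit the difference was -1.47 with an adjusted p of 0.0025. This call too was made in all 11 blocked fits that left out 1 array. With organ means alone, only 1 of 11 such fits made it, that without MLN 4 (-1.93, adjusted p = 0.0264). Liver cultures stood above the mean of the others by 1.01 in the blocked fit (limma adjusted p = 0.0197). The Liver call was lost without Liver 2 (adjusted p = 0.160), Liver 4 (0.0739) or Spleen 3 (0.0636). Between neighbours in the order of levels no difference was called in the blocked fit. Liver exceeded Spleen by 0.44 (95% interval -0.11 to 0.999), PLN was below Spleen with a difference of -0.29 (-0.85 to 0.27), and MLN was below PLN with a difference of -1.13 (-1.61 to -0.65, limma adjusted p = 0.095).

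Il18rap, the accessory chain, followed the same order between Liver and MLN with a smaller difference. Its log2 levels were 9.35, 8.88 and 9.02 in Liver cultures and 8.70, 8.15 and 8.68 in MLN cultures. The Liver and MLN arrays did not overlap. PLN cultures had 8.89, 8.67 and 8.88, while the Spleen arrays, at 8.11 and 8.97, spanned most of the range. The organ means were 9.08 ± 0.24 for Liver, 8.51 ± 0.31 for MLN, 8.81 ± 0.12 for PLN (SD, n = 3 each) and 8.54 ± 0.61 for Spleen (SD, n = 2). Liver exceeded MLN by 0.57, or 1.49-fold, and by 0.64, 0.73 and 0.34 within the replicate numbers. This difference had a limma adjusted p of 0.931 with organ means alone and of 0.0361 in the blocked fit. The blocked call is close to the threshold: it was lost without Liver 2, Liver 3, MLN 2, MLN 3 or MLN 4 (adjusted p from 0.116 to 0.206), and with the number as a random term (0.0599).

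The neighbouring genes with values here were dim. Il1r1 and Il1rl2, which encode receptors of the interleukin 1 family upstream of Il18r1, were measured but too dim to be tested, with deposited intensities of 16.9 to 170.1 for Il1r1 and 52.3 to 123 for Il1rl2. Il1r1 had intensities of 16.9, 44.2 and 23.0 in Liver cultures and 33.3, 170.1 and 43.3 in MLN cultures, so that its Liver and MLN arrays overlapped. Within each replicate number the Liver array was the lower, with log2 levels of 5.07 against 5.65, 5.95 against 7.54 and 5.40 against 6.08. Il1rl2 was also lower in Liver within each number, at 6.18 against 6.49, 6.61 against 7.10 and 6.22 against 6.86. Both thus had the sign opposite to Il18r1 in all 3 numbers, without a test. Il1rl1 had no value here.

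Transcripts found in other cells also differed between Liver and MLN cultures in the blocked fit, which called 4.13% of all tested genes in this comparison. With organ means alone 0 genes of the marker lists were called. Of 4 tested genes on a list of natural killer cell markers, Klrk1 (1.18) and Klrd1 (0.78), both of which activated CD8+ T cells express too, were higher in Liver cultures (limma adjusted p = 0.000624 and 0.0139). The other 2 tested genes of the list had differences below 0, among them Klra7, a Ly49 receptor gene with a mean intensity of 268.5 (-0.14, limma adjusted p = 0.742). Ncr1 and the Ly49 genes Klra1 and Klra8 were dim, with mean intensities of 59.98, 4.82 and 41.9. The summed intensity of the 7 measured natural killer genes was 8181 to 14387 in Liver and 7402 to 12016 in MLN cultures, which overlap; that list shares Nkg7 with the effector genes below. Among 6 tested macrophage or monocyte genes, Cd14 (1.37) and Lyz2 (1.005) were higher in Liver cultures, and 2 had differences below 0 that were not called. Cd14 and Lyz2 were dim in MLN cultures, with mean intensities of 64.2 and 92.9. C1qa and C1qc averaged 6.39 and 3.91 over all arrays, below the added constant. The summed macrophage list, of 10 genes, was 2943 to 3921 in Liver and 2577 to 3320 in MLN cultures. Of 10 tested dendritic cell genes, Batf3 was lower in Liver cultures (-0.69), and the sums of 12 genes overlapped (5728 to 9883 and 6785 to 11111). Of 7 tested T cell genes, Cd2, Cd5 and Cd28 were higher in Liver cultures, by 0.55, 0.57 and 0.46. No gene of the CD8 lineage, CD4 lineage or B cell lists was called, with 2, 2 and 3 genes tested. The part of these differences in the Il18r1 and Il18rap results was not tested.

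Il12rb1, which encodes the receptor chain shared by interleukins 12 and 23, went in the opposite direction. Its log2 levels were 9.19, 10.07 and 9.77 in Liver cultures and 9.96, 10.50 and 10.66 in MLN cultures. The organ arrays overlapped, since Liver 3 lay above MLN 2, yet within each replicate number the Liver array was the lower. PLN cultures had 10.19, 10.13 and 10.34 and Spleen cultures 10.03 and 9.79. The order of the means was MLN at 10.38 ± 0.37, PLN at 10.22 ± 0.11 (SD, n = 3 each), Spleen at 9.91 ± 0.17 (SD, n = 2) and Liver at 9.67 ± 0.44 (SD, n = 3). Liver minus MLN was -0.70, and -0.77, -0.44 and -0.90 within the numbers. The limma adjusted p was 0.690 with organ means alone and 0.0194 in the blocked fit. The blocked call was lost without Liver 2, Liver 4 or any 1 of the MLN arrays (adjusted p from 0.0557 to 0.139). No neighbours in this order were called apart: MLN exceeded PLN by 0.16 (95% interval -0.16 to 0.47), PLN exceeded Spleen by 0.47 (0.10 to 0.83, adjusted p = 0.543), and Liver minus Spleen was -0.077 (-0.44 to 0.29).

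Il12rb2, the chain that makes the interleukin 12 receptor able to signal, varied little. Its log2 levels were 9.81, 9.72 and 9.64 in Liver cultures and 9.51, 9.51 and 9.46 in MLN cultures. These arrays did not overlap, with Liver the higher. The PLN arrays were at 9.63, 9.75 and 9.11 and the Spleen arrays at 9.24 and 9.61, on both sides of the MLN arrays. Liver minus MLN was 0.23 with a 95% interval of -0.09 to 0.55 in the blocked fit (limma adjusted p = 0.491), so that no difference was detectable here.

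Among the regulators, Stat4 showed no difference between organs in either fit. Its log2 levels were 10.90, 10.33 and 11.29 in Liver cultures, 10.73, 10.82 and 11.08 in MLN cultures, 10.67, 10.57 and 10.77 in PLN cultures, and 10.39 and 11.24 in Spleen cultures. The Liver and Spleen arrays numbered 3 were the lowest and those numbered 4 the highest, and all organs overlapped. Liver minus MLN was -0.034 (95% interval -0.33 to 0.27 in the blocked fit).

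Tbx21 had its highest mean in Liver cultures, without a call. Its log2 levels there were 9.62, 8.95 and 10.09, against 8.97, 9.15 and 9.53 in MLN cultures. In PLN cultures they were 9.05, 8.98 and 9.01, and in Spleen cultures 8.91 and 9.68. The Liver array numbered 3 lay below every PLN array and below MLN 3, so the organs overlapped. Liver minus PLN was 0.54 with a 95% interval of 0.15 to 0.92 in the blocked fit, and its limma adjusted p was 0.160.

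Eomes was measured by 2 probe sets, which correlated at 0.943 over the 11 arrays. The brighter gave log2 levels of 9.01, 9.56 and 10.11 in Liver cultures, 8.98, 9.26 and 9.97 in MLN cultures, 9.39, 9.61 and 10.14 in PLN cultures, and 9.72 and 9.68 in Spleen cultures. In Liver, MLN and PLN cultures the array numbered 2 was the lowest and that numbered 4 the highest, while the Spleen arrays were nearly level. By this probe set the PLN mean was the highest, 9.72 ± 0.38 (SD, n = 3), and by the other the Spleen mean, 9.61 ± 0.04 (SD, n = 2). Liver minus MLN was 0.16 by the brighter and 0.27 by the other, with 95% intervals in the blocked fit of -0.13 to 0.45 and -0.08 to 0.62. Neither was called.

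Ifng varied widely between arrays and less between organs. Its log2 levels were 9.17, 10.24 and 10.71 in Liver cultures, 9.24, 11.14 and 11.39 in MLN cultures, 9.10, 11.10 and 10.55 in PLN cultures, and 10.53 and 10.44 in Spleen cultures. The 3 arrays numbered 2 were the lowest of all 11, and every organ overlapped every other. In deposited intensity the means were 1151 ± 554 for Liver, 1865 ± 1133 for MLN, 1397 ± 846 for PLN (SD, n = 3 each) and 1417 ± 85 for Spleen (SD, n = 2). Within the replicate numbers Liver minus MLN was -0.077, -0.90 and -0.68, the same sign each time. The difference of -0.55 had a 95% interval of -1.94 to 0.83 with organ means alone and of -0.94 to -0.17 in the blocked fit, where its limma adjusted p over all tested genes was 0.122. The MLN mean was the highest, without a call. The plain Liver mean was the lowest, but Spleen has no array numbered 2, and after the mean of each number was subtracted Spleen was at -0.28 and Liver at -0.19.

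**Figure D1:**
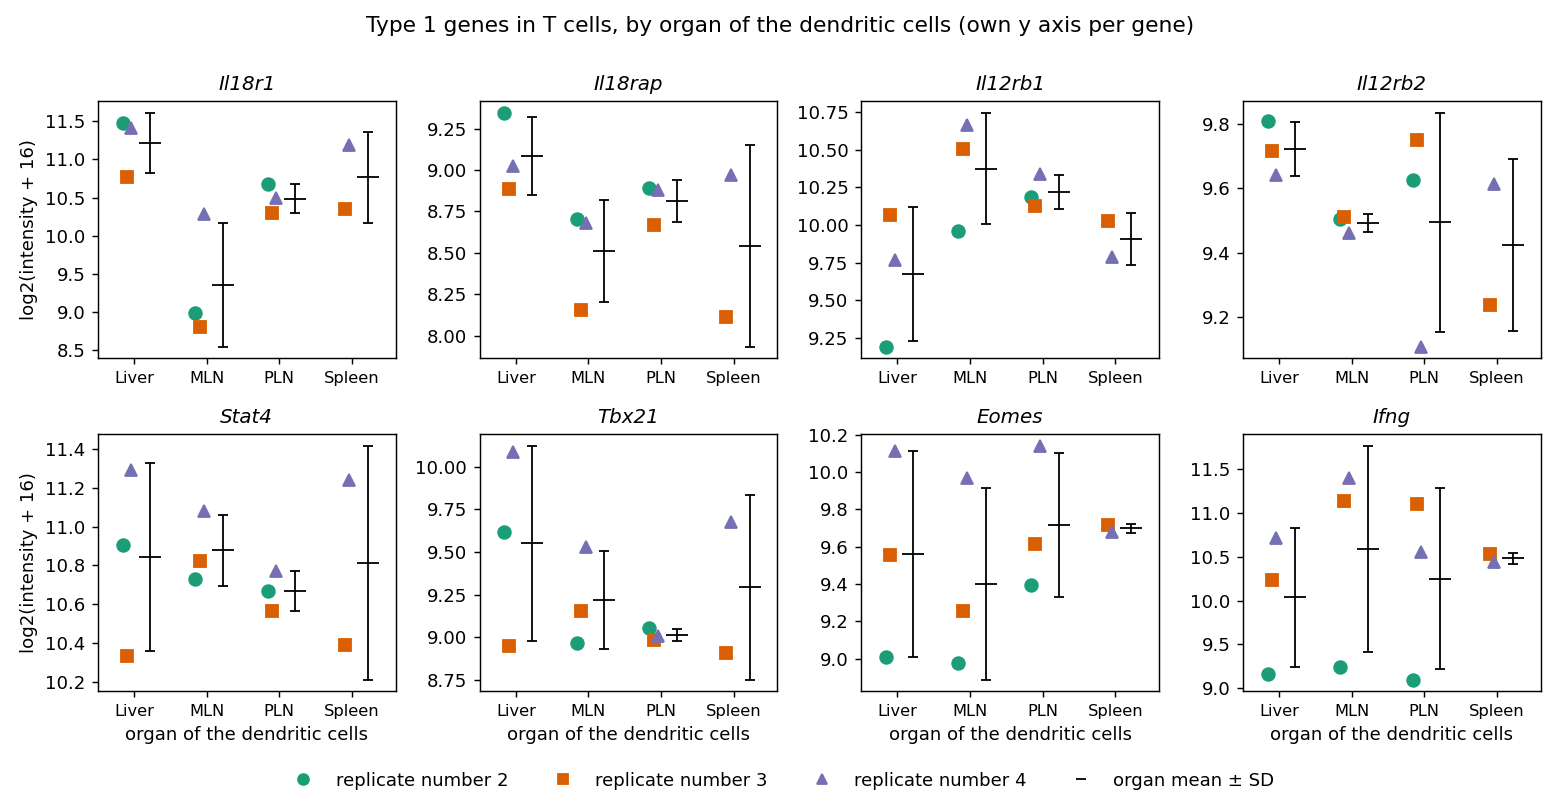
Log2(intensity + 16) of the 8 genes by organ of the dendritic cells, 1 point per array with its replicate number as shape and colour, and bars giving the organ mean ± SD. Each gene has its own axis; Il18r1 runs from 8.80 in an MLN array to 11.48 in a Liver array, and the Ifng arrays numbered 2 lie lowest in their organs.

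Counted over the 8 genes, limma called 0 in any comparison of organs with organ means alone, including the F-test over the 4 organs. Over all tested genes that fit called 0.161% between Liver and MLN, 0.0941% for MLN against the others, 0% for Liver against the others, 0.0134% between MLN and PLN and 0.0403% in the F-test. At an unadjusted p under 0.05, 3 of the 8 differed between Liver and MLN, where 4.79% of all tested genes did. In the blocked fit, 3 of 8 were called between Liver and MLN (2 higher in Liver, 1 lower), beside 4.13% of all tested genes (1.88% higher, 2.25% lower). That fit called 1 of 8 higher for Liver against the others, beside 2.14% of all tested genes (0.753% higher), and 1 of 8 lower for MLN against the others, beside 1.33% (0.619% lower). In its F-test 1 of 8, Il18r1, was called (limma adjusted p = 0.0053), beside 1.99%. In the blocked fit 0 of 8 were called for PLN or Spleen against the others (0.0134% and 0% of all tested genes). Likewise 0 of 8 were called in the other pairs of organs, where the background was 1.51% for Liver and PLN, 0% for Liver and Spleen, 0.148% for MLN and PLN, 0.215% for MLN and Spleen and 0% for PLN and Spleen. At an unadjusted p under 0.05 the blocked fit had 2 of 8 for PLN and 1 of 8 for Spleen against the others, beside 8.12% and 8.7% of all tested genes. In those pairs it had 3, 1, 3, 3 and 1 of 8, in the order given, beside 15.7%, 8.66%, 5.93%, 13.9% and 8.14%.

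Between Liver and MLN the arrays of the organs did not overlap for 3 genes, Il18r1, Il18rap and Il12rb2, all higher in Liver, while 5.24% of tested genes did so in that direction. Il18r1, Il18rap, Il12rb2 and Eomes were higher in the Liver array within every replicate number (21.3% of tested genes), and Ifng and Il12rb1 were lower within every number (17.6%). The median Liver minus MLN difference over the 8 genes was 0.19, beside 0.01 over all tested genes.

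**Figure D2:**
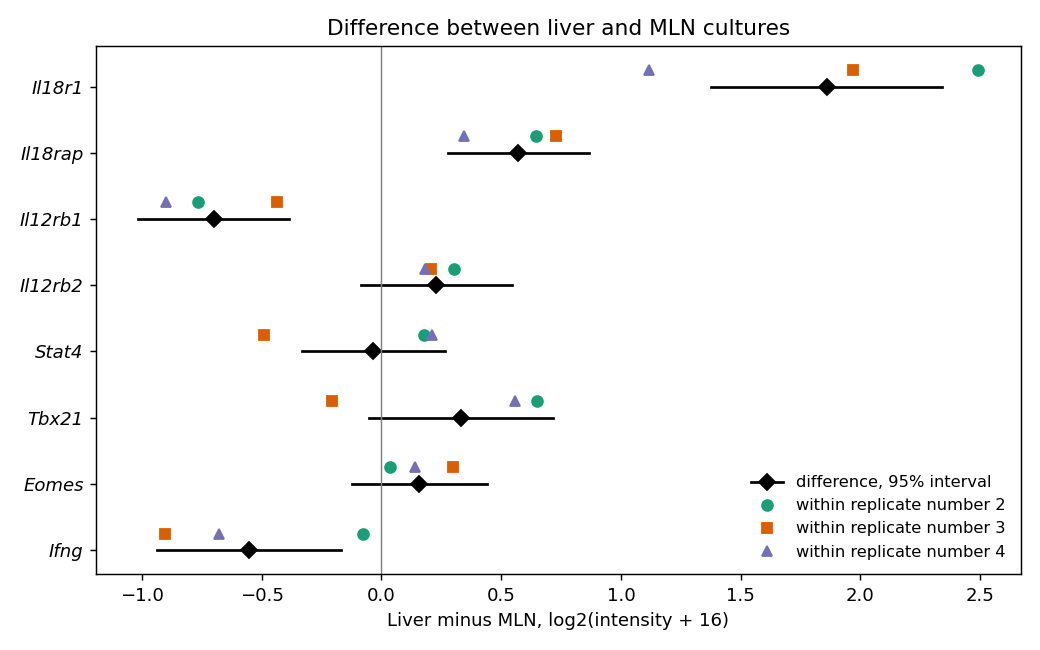
Liver minus MLN difference in log2(intensity + 16) for each gene; diamonds and lines give the blocked estimate with its 95% interval and coloured points the difference within each replicate number. Il18r1 lies at 1.86 and Il12rb1 at -0.70, while the points of Stat4 and Tbx21 fall on both sides of 0.

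The replicate number separated several of these genes more than the organ did. For Ifng the number accounted for 82.8% of the variance over the 11 arrays and the organ for a further 10.1%. Eomes (77.8% and 9.81%) and Stat4 (65.8% and 7.56%) were of the same kind. The shares were reversed for Il18r1, with 16.6% for the number and 72.9% for the organ, and for Il12rb1, with 20.2% and 61.9%. Tbx21 (43.4% and 28.2%) and Il18rap (44.6% and 40.99%) lay between. Over all tested genes the shares were 57.9% for the number and a further 21.99% for the organ. For Il12rb2 most of the variance, 59.6%, was left after both. The labels do not say what the replicate number stands for.

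Comparisons between numbers, fitted with organ as a covariate, are given here as differences between sets of arrays whose conditions are otherwise labelled alike. Ifng averaged 9.17 ± 0.07 (SD, n = 3) in arrays numbered 2, 10.75 ± 0.44 (SD, n = 4) in those numbered 3 and 10.77 ± 0.43 (SD, n = 4) in those numbered 4. The arrays numbered 2 did not overlap the others. The difference of number 3 from 2 was 1.68 (SE 0.17, 3.19-fold, limma adjusted p = 0.000153), and it was 1.07 in Liver, 1.90 in MLN and 2.002 in PLN cultures. Numbers 4 and 3 differed by 0.021 (95% interval -0.31 to 0.35). Number 4 exceeded number 2 by 1.70 (SE 0.17, adjusted p = 8.3e-05).

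Eomes averaged 9.13 ± 0.23 (SD, n = 3) in number 2, 9.54 ± 0.20 in number 3 and 9.98 ± 0.21 in number 4 (SD, n = 4 each). Number 4 exceeded number 2 by 0.87 (SE 0.13, limma adjusted p = 0.000585). By the other probe set the difference of 3 from 2 was 0.29 and was not called (adjusted p = 0.237), while that of 4 from 3 was 0.65 and was (adjusted p = 0.0033). The call of the Eomes difference of 0.43 between 3 and 2 was lost without Liver 2, Liver 3, MLN 2 or PLN 2 (adjusted p from 0.0562 to 0.152). Median centring in place of quantile normalization lost that call as well (0.0569).

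In all, 3 of 8 genes were higher and 1 lower in number 3 than in number 2, beside 18.9% of all tested genes called, 9.29% higher and 9.59% lower. The higher ones were Ifng, Il12rb1 (0.49) and Eomes, and the lower was Il18rap (-0.48). The Il12rb1 call was lost without Liver 2, Liver 3, MLN 2, MLN 3, Spleen 3 or Spleen 4 (adjusted p from 0.0592 to 0.160), and the Il18rap call without Liver 2, MLN 2, MLN 3 or PLN 2 (0.0510 to 0.108). With all measured genes tested, or without the organ term, Ifng was the only 1 of the 8 called between 3 and 2. Between numbers 4 and 3, 5 of 8 were higher and 0 lower, beside 43.3% of all tested genes called, 22.3% of all being higher in number 4. These were Il18r1 (0.79), Tbx21 (0.58), Stat4 (0.57), Eomes (0.44) and Il18rap (0.43), with limma adjusted p-values from 0.0022 to 0.0103. The Il18rap call between 4 and 3 was lost without Spleen 3 (adjusted p = 0.0597) or Spleen 4 (0.0624). Without the organ term it was lost too (0.0719), as was that of Il18r1 (0.226). Between numbers 4 and 2, 3 of 8 were higher, beside 27.2% of all tested genes called, 14.8% of all being higher: Ifng, Eomes and Il12rb1 (0.44). That Il12rb1 call was lost without Liver 2, Liver 4, MLN 2, MLN 4 or PLN 4 (adjusted p from 0.0653 to 0.177). It was also lost with all measured genes tested (0.0737) and without the organ term (0.31). At such backgrounds the counts of the 8 genes describe differences that many genes shared, and Il12rb2 was called between no pair of numbers.

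Stat4 and Tbx21 moved together between numbers 3 and 4 in Liver and Spleen cultures. From 3 to 4 Stat4 was higher by 0.96 in Liver and 0.85 in Spleen cultures, and by 0.26 in MLN and 0.21 in PLN cultures. Tbx21 was higher by 1.14 in Liver, 0.76 in Spleen, 0.38 in MLN and 0.022 in PLN cultures. For both genes the sign was the same in all 4 organs, as it was for Il18r1 and Il18rap. This comparison called 43.3% of all tested genes, which is a different measure. The share of all tested genes with 1 sign in all 4 organs is not given here, so these signs are description only. Whether these steps differ between organs was not tested.

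Cell type transcripts moved with the number too. The summed intensity of the 12 dendritic cell genes was 9883 to 11201 in arrays numbered 3, above the 6808 to 7224 of number 2 and the 5514 to 7124 of number 4. These genes did not all move alike. Of 10 tested, 8 were called lower and 1 higher in number 4 than in number 3, beside 43.3% of all tested genes called. The higher one was Itgax (1.85, limma adjusted p = 1.7e-06). The 7 measured T cell genes summed to 23356 to 27587 in number 4, above the 18662 to 21452 of number 2 and the 19015 to 20983 of number 3. The natural killer list summed to 11141 to 14387 in number 4, above 7402 to 10970 in number 2 and 6883 to 8181 in number 3. Its brightest genes were Nkg7, Klrd1 and Klrk1 (mean intensities 5285, 2760 and 1315), whereas Ncr1 averaged 59.98. Activated CD8+ T cells express Klrd1 and Klrk1 too, and Nkg7 is also among the effector genes, so the sum does not count natural killer cells. Il12b, the interleukin 12 subunit made by dendritic cells, was lower in number 4 than in number 3 (-2.20), and so was Il15 (-1.28). Their part in the differences between numbers was not tested.

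**Figure D3:**
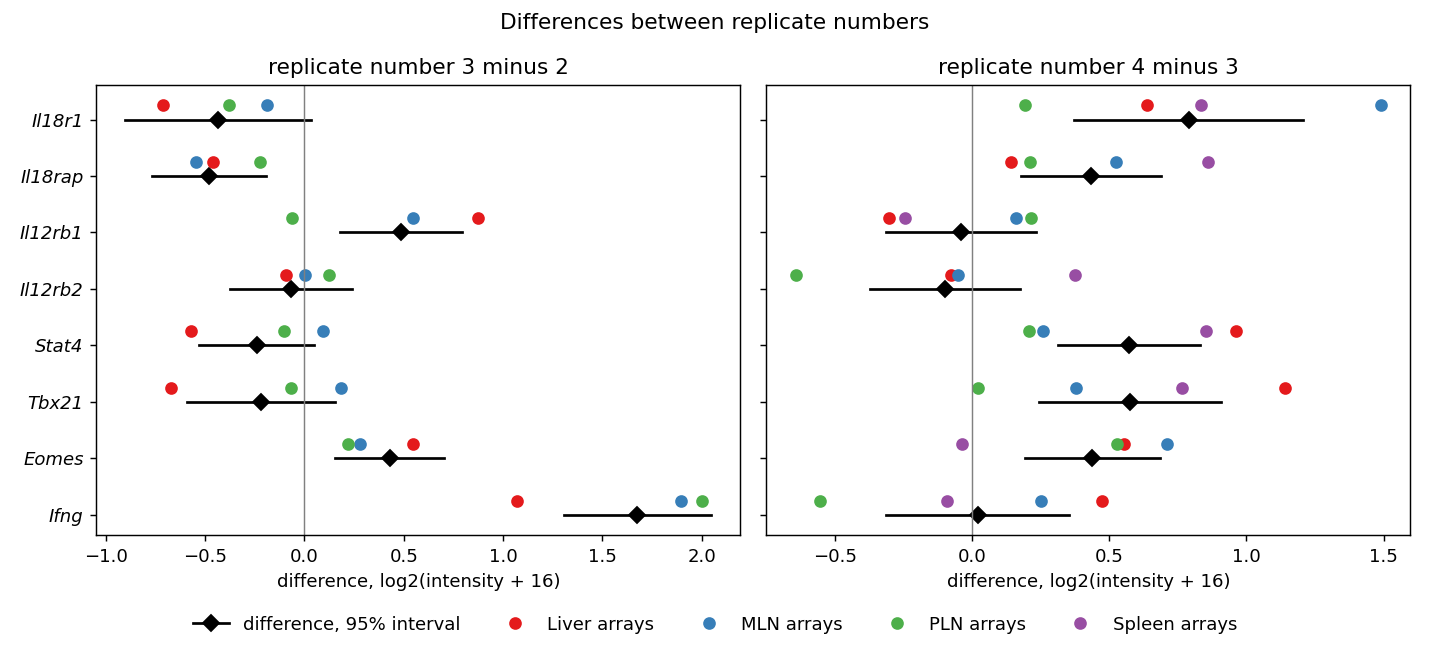
Differences between replicate numbers (3 minus 2 on the left, 4 minus 3 on the right) in log2(intensity + 16); diamonds and lines give the fitted difference with its 95% interval and points the difference within each organ. Ifng differed by 1.68 between 3 and 2 and by 0.021 between 4 and 3, whereas Il18r1, Stat4 and Tbx21 were higher in number 4 than in 3 in every organ.

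To see which of the genes varied together apart from the number, the mean of each number was subtracted and Pearson's r was taken over the 11 arrays, which share the organs and the normalization. The highest values were those of Stat4 with Tbx21 (0.82), of Il18r1 with Il18rap (0.76), of Tbx21 with Il12rb2 (0.71) and of Il18rap with Il12rb2 (0.70). The lowest was that of Il18r1 with Il12rb1 (-0.71). Ifng reached 0.50 with Il12rb1 and -0.51 with Il18r1. These are descriptions over few arrays of 4 organs.

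**Figure D4:**
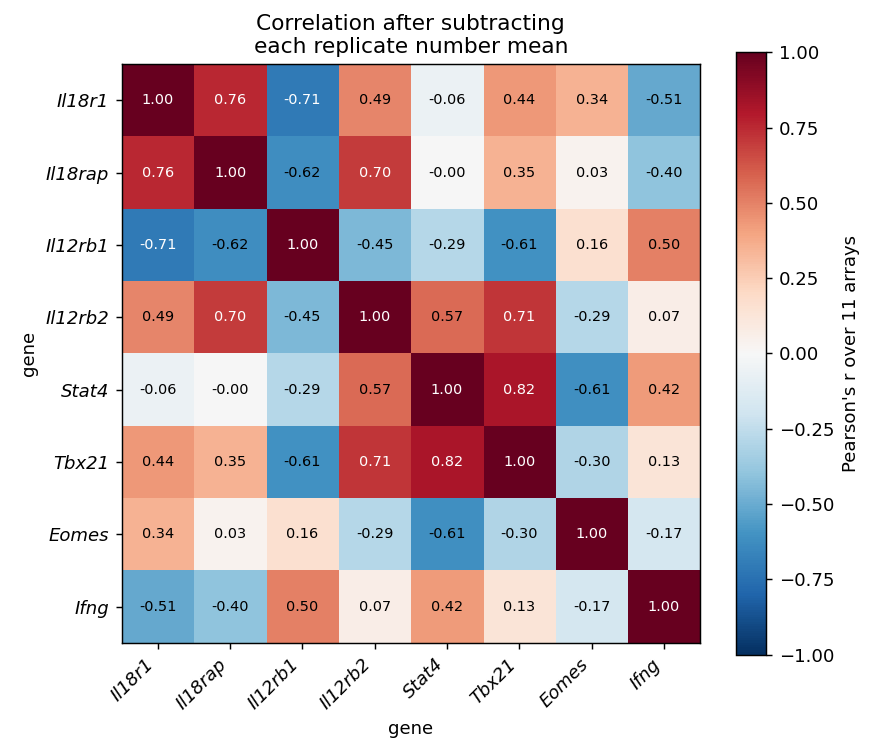
Pearson's r between the 8 genes over 11 arrays after subtracting each replicate number's mean, on a colour scale from -1 to 1. The pair Stat4 and Tbx21 has 0.82, and Il12rb1 is negative with Il18r1 (-0.71), Il18rap (-0.62) and Tbx21 (-0.61).

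By the same measure over the same 11 arrays, the tested genes most like Il18r1 were Pqlc3 (0.98), S100a10 (0.97) and Klrc1 (0.96), the last an NKG2 receptor gene of natural killer and activated CD8+ T cells. Those most like Il18rap were Smc4, Msl3 and the chemokine receptor gene Ccr2 (0.95, 0.93 and 0.93). Il12rb1 was most like Snhg6, Ccr4, a chemokine receptor gene of type 2 T cells, and Kif3a (each 0.96). Ifng was most like Pglyrp2, Lgals3bp and Oas1a, the last an interferon-induced gene (0.92, 0.92 and 0.91). For Tbx21 they were Rpa2, Ankrd13a and Pimreg (0.97, 0.95 and 0.95), for Stat4 Gabarapl2, Trappc13 and Gimap6 (0.94, 0.94 and 0.92), for Il12rb2 Pfdn5, Pex2 and Xrn2 (0.97, 0.94 and 0.93), and for Eomes Rabl6, Psmb6 and Car9 (0.93, 0.91 and 0.91). Another of the 8 genes came nearest the top for Stat4, at rank 23, which is Tbx21. The closest of the 8 ranked 157 for Tbx21, 167 for Il18rap, 234 for Il12rb2 and 276 for Il18r1. It ranked 787 for Ifng, 1192 for Il12rb1 and 1288 for Eomes, so the 8 genes were not each other's nearest.

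The rest of the pathway was read from 7 lists, in the blocked fit of Liver against MLN cultures, where 4.13% of all tested genes were called and their median difference was 0.01. With organ means alone 0 genes of these 7 lists were called. Of 15 tested type 1 effector genes, 4 were higher in Liver cultures and 0 lower, with a median of 0.31. They included Cxcr3 (0.81), Cxcr6 (0.52) and Ccl5 (0.73), which encode chemokine receptors and a chemokine of type 1 T cells. Of 11 signal transducers of interleukins 12 and 18, Mapk14, the p38 kinase gene, was higher (0.48) and Gadd45g, whose product activates p38 signalling, lower (-0.84), with a list median of 0.058. Of 3 tested ligand genes, Il12b was higher in Liver cultures (0.63), beside 0.26 for Il15 and -0.26 for Ebi3, which were not called. Among 12 related cytokine receptors, Il7r was higher (0.47) and Il4ra, the interleukin 4 receptor chain, lower (-0.86), with a median of -0.13.

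The type 2 cytokine gene Il13 was lower in Liver cultures (-1.54, limma adjusted p = 0.014), the only call among 7 tested regulators and cytokines of other T cell fates, whose median was -0.13. Gata3, the main type 2 regulator, was not called (-0.30, adjusted p = 0.467). Among 7 tested genes of the interferon gamma receptor and response, 0 were called, with a median of -0.060. Socs1, an inhibitor induced by interferon gamma, had a difference of -0.53 (limma adjusted p = 0.0826). Among 9 tested partner regulators of type 1 genes, 0 were called, with a median of -0.076. Bhlhe40, a cofactor of cytokine expression, had a difference of -0.37 (limma adjusted p = 0.0526).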

How the data were processed

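The data are 1 table from 11 single-colour mouse oligonucleotide arrays, whose values are linear intensities of probe sets. The authors scaled the deposited intensities: by their values, the mean after trimming 2% at each end was 500.2 on every array. The summarising software is not given in the sources used here. Of 22690 probe sets, 20380 had 1 gene symbol, 691 several and 1555 none, with 64 controls left out. All columns matched a sample.

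Values were taken as log2(intensity + 16) and quantile normalized. The probe set of highest mean stood for each of 12393 genes, and the 7436 in the upper 60% by mean, above an intensity of 104.7, were tested. The offset makes differences of dim genes smaller. Tests used limma 3.58.1 in R 4.3.3 (lmFit, eBayes with trend, two-sided), with Benjamini-Hochberg adjustment over 7436 genes at 0.05. The main fit had organ means alone (7 residual degrees of freedom), and the alternative added the replicate number as a block (5). The scripts were tested on simulated data.

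The replicate numbers pair the arrays: after organ means were subtracted, r across genes was 0.412 to 0.731 for the 15 pairs of arrays that share a number but not an organ and -0.708 to 0.0843 for the 30 that share neither, and 11 of 11 arrays matched their own number best. The labels do not say what a number marks.

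The genes, the lists and the tests were chosen with earlier results of these data known. The rule for naming takes the 8 genes in every comparison, up to 3 genes of smallest p from each list (2 between numbers), the marker genes whose levels are given, and the 3 genes most correlated with each of the 8. Alternatives were other offsets, scalings, filters, probe sets and block forms, and each array left out. Promoters and positions are from RefSeq, GRCm38.p6.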

Additional observations from a re-analysis of the deposited data

How the results depend on the processing

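The replicate block changed more counts between organs than any other choice. Against 0 of the 8 genes with organ means alone, the replicate block called 1 in the F-test, 1 for Liver against the others, 1 for MLN against the others and 3 between Liver and MLN. With all probe sets these blocked counts were 1, 1, 1 and 3. On intensities as deposited they were 2, 1, 1 and 3, and with median centring 2, 1, 2 and 3. With the number as a random term they were 1, 1, 1 and 2. Between MLN and Spleen 1 was called with the block on intensities as deposited or with median centring, against 0. Between numbers 3 and 2, 4 calls became 1 without the filter on dim genes and 1 without the organ term, and between 4 and 3, 5 became 3 without the organ term. Offsets of 1 and 64, and the unblocked fits on deposited values, with median centring, without the filter or with all probe sets, made no other count of members differ by more than 1.5 times.

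Leaving out 1 array at a time gave 0 to 1 calls between Liver and MLN and for MLN against the others with organ means alone. It gave 1 to 5 between numbers 3 and 2, 2 to 4 between 4 and 2 and 4 to 5 between 4 and 3. In the blocked fits the ranges were 1 to 2 (F-test), 0 to 3 (Liver against the others), 1 to 3 (Liver and MLN), 0 to 2 (Liver and PLN), 1 to 2 (MLN against the others), 0 to 1 (MLN and PLN) and 0 to 1 (MLN and Spleen).

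The differences that changed sign were not called with all arrays, and the cause was not tested. Eomes in Liver against the others was -0.045 with organ means alone and 0.027, 0.027, 0.043, 0.053 and 0.012 in the blocked fits in the order above. With 1 array left out and organ (or organ and number) means fitted, these ranges crossed 0: Eomes in Liver against the others from -0.32 to 0.23, Eomes in Liver minus MLN from -0.12 to 0.44, Ifng in Liver against the others from -0.74 to 0.034 and Ifng in MLN against the others from -0.065 to 1.01. Likewise, Ifng in number 4 minus 3 from -0.16 to 0.18, Il12rb1 in number 4 minus 3 from -0.18 to 0.070, Il12rb2 in MLN against the others from -0.12 to 0.0081 and Il12rb2 in number 3 minus 2 from -0.21 to 0.012. Further, Il12rb2 in number 4 minus 2 from -0.24 to 0.014, Il12rb2 in number 4 minus 3 from -0.26 to 0.056, Il18rap in number 4 minus 2 from -0.12 to 0.066 and Stat4 in Liver against the others from -0.17 to 0.31. Then, Stat4 in Liver minus MLN from -0.26 to 0.22, Stat4 in MLN against the others from -0.041 to 0.24 and Tbx21 in MLN against the others from -0.23 to 0.059. In the blocked fits they were: Eomes in Liver against the others from -0.079 to 0.13, Ifng in Liver against the others from -0.38 to 0.040, Il12rb2 in MLN against the others from -0.17 to 0.038 and Stat4 in Liver against the others from -0.047 to 0.24. Likewise, Stat4 in Liver minus MLN from -0.14 to 0.13, Stat4 in MLN against the others from -0.049 to 0.19 and Tbx21 in MLN against the others from -0.21 to 0.073.

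The number of arrays limits these results. An organ difference was called only where the replicate number was in the fit, with the exception of the Il18r1 results without MLN 4. Dim genes, such as Il1r1, lay below the limit on mean level and were not tested.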

Other observations

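Genes near the type 1 pathway also differed between replicate numbers, as many tested genes did: 43.3% were called between 4 and 3 and 18.9% between 3 and 2. Of 15 tested type 1 effector genes, 5 were higher and 3 lower in number 4 than in number 3. In number 3 against number 2, 8 of them were higher and 1 lower. Prf1, the perforin gene of cytotoxic T cells, was higher in number 4 than in number 3 by 1.63 (SE 0.088), and Cxcr6, a receptor gene of effector T cells, by 1.501 (SE 0.096). Limma's adjusted p was 5.2e-07 for Prf1 and 8.6e-07 for Cxcr6. Number 3 exceeded number 2 in Il13 by 2.84 (SE 0.29), in Il2 by 1.85 (SE 0.26) and in Csf2, a growth factor gene of activated T cells, by 1.66 (SE 0.14). For Il13 that step was larger than its difference between Liver and MLN cultures (-1.54), and Ifng was also higher in number 3 than in number 2. Il10, an inhibitory cytokine gene, was higher by 1.46 (SE 0.22) in number 3 than in number 2. Csf2 (-1.62) and Il13 (-1.41) were in turn lower in number 4 than in number 3.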
